A study of Mus musculus with 6 samples.

Results

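A group of 10 genes of the nuclear factor kappa B (NF-κB) pathway was followed in alveolar type II cells that had lost Stat3: the DNA-binding subunits Nfkb1, Nfkb2, Rel, Rela and Relb, the inhibitors Nfkbia, Nfkbie and Tnfaip3, and the signaling partners Malt1 and Bcl10. Every probe set annotated to one of these 10 genes alone was taken, which gave 21 probe sets of 9 genes among 45037 probe sets and 18193 genes. Nfkb1 was not analysed here. The Stat3Δ/Δ cells came from mice that carry SP-C-rtTA and (tetO)7CMV-Cre with Stat3flx/flx. In these, rtTA driven by the surfactant protein C promoter turns on Cre under doxycycline, given to the dams in the food from conception until after birth, and a Stat3 exon is lost from respiratory epithelium. The control cells came from littermates, so both groups were exposed to doxycycline. Their source name gives SP-C-rtTA with (tetO)7CMV-Cre and no floxed Stat3, whereas the methods describe non-deleted mice with one of these transgenes and Stat3flx/flx, and the description field gives the controls the same triple-transgenic line as the Stat3Δ/Δ mice. The sample titles call the control pools wild-type. Which of these descriptions applies to each pool is not settled. All mice were 8 weeks old. Each RNA held the cells of 3 mice, isolated by collagenase and differential plating, so that p-values measure only the spread between pools, and 3 Stat3Δ/Δ pools and 3 control pools were each hybridized to 1 MOE430 array, a chip that reads many genes with several probe sets.

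NF-κB proteins are dimers that wait in the cytoplasm, held by inhibitors of the IκB family such as the products of Nfkbia and Nfkbie. Cytokines, microbial products and tissue damage activate IκB kinase, the inhibitor is degraded, and Rela-containing dimers enter the nucleus, where they induce inflammatory and survival genes together with Nfkbia and Tnfaip3, which switch the response off. Bcl10 and Malt1 join a CARD-domain scaffold into the complex that links antigen receptors in lymphocytes, and several other receptors in epithelial cells, to the same kinase. In lung epithelium the pathway drives chemokine production during infection and injury.

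The signals were scaled by the authors to one trimmed mean on each array, and median signals ran from 337.8 to 381.3 on the Stat3Δ/Δ arrays and from 282.8 to 360.7 on the control arrays. The tests used quantile-normalized values of log2(signal + 70.0), so each fold change below is a difference on that scale, Stat3Δ/Δ less control. A call in limma needed a fold of 1.5 or more, a p up to 0.05 and a false discovery rate (FDR) up to 10%. Of the 4 probe sets of Stat3, the 2 brightest lay lower on every Stat3Δ/Δ array than on any control array, with log2 fold changes of -0.71 and -0.80, and neither passed the FDR (adjusted p = 0.532 and 0.502 from limma). The dimmer probe sets overlapped between the groups, with log2 fold changes of 0.60 at 1459961_a_at and -0.046 at 1424272_at. The first number in the sample title is the same for Stat3Δ/Δ pools 1 and 2 and control pool 3, another for control pools 1 and 2, and different again for Stat3Δ/Δ pool 3. The sources used here do not say what it stands for. Stat3Δ/Δ pools 1 and 2 less control pool 3, the only comparison inside one number, is given below as the shared-number difference. All 11 type II cell markers lay above the median signal, 3 with a log2 fold change above 0 and 8 below, with a median of -0.038. The surfactant protein genes Sftpa1, Sftpb, Sftpc and Sftpd lay between -0.038 and 0.053, whereas Abca3, the lipid transporter of lamellar bodies, was lower without overlap at -0.73 and passed p and fold but not the FDR (limma adjusted p = 0.561), and Slc34a2 was lower without overlap at -0.14. These were 2 of the 11 markers, where 10.2% of all genes lay lower without overlap. Of 13 macrophage markers 11 lay above 0, and their summed signal ran from 263628 to 340078 on the Stat3Δ/Δ arrays and from 256211 to 271099 on the control arrays. Their median log2 fold change was 0.47, and 6 of the 13 lay higher without overlap, against 4.23% of all genes. Of 9 neutrophil markers 6 lay above 0, with sums of 32307 to 37856 on the Stat3Δ/Δ arrays and 20255 to 25403 on the control arrays. Their median was 0.48. Of these 9, 4 lay higher without overlap and passed p and fold without the FDR, against 4.23% and 2.15% of all genes. Of 17 lymphocyte markers 11 lay above 0, with a median of 0.090 and sums of 22443 to 30397 on the Stat3Δ/Δ arrays and 13398 to 41312 on the control arrays. All 13 macrophage markers, 7 of the 9 neutrophil markers and all 17 lymphocyte markers lay above the median signal of the arrays. The 9 fibroblast markers had summed signals of 11902 to 19365 on the Stat3Δ/Δ arrays and 19866 to 37992 on the control arrays. Their median log2 fold change was -1.42, from -1.96 to -0.68 with each array left out. Col1a1, Col1a2, Col3a1 and Dcn lay lower without overlap and passed p and fold without the FDR. These were 4 of the 9, against 10.2% and 5.54% of all genes, and 1, Fn1, lay higher without overlap, against 4.23%. The shared-number differences had a median of -0.0074. They were -1.11, -1.04, -1.68 and -0.52 for the 4 lower ones, and 0.48 to 1.03 for Lum, Pdgfra, Fn1 and Dpt. The medians of 8 endothelial markers and of 7 ciliated and secretory airway markers were -0.29 (from -0.45 to -0.17 with each array left out) and -0.72 (from -0.99 to -0.43). The ciliated markers Foxj1, Tekt1, Dnali1 and Ccdc113 gave -1.06, -1.12, -1.47 and -0.72, all lower without overlap. The secretory markers Scgb1a1, Scgb3a2 and Cyp2f2 gave 0.012, -0.22 and -0.14, with overlap. Of the 7, 4 lay lower without overlap and 3 passed p and fold as lower without the FDR, against 10.2% and 5.54% of all genes. Of the 8 endothelial markers, 2 and 1 did. These cell types use the NF-κB genes too, and what part they have in the values below was not tested. As a measure of RNA integrity, the 3' over 5' signal of Actb was, in log2, 0.39 ± 0.046 on Stat3Δ/Δ arrays and 0.64 ± 0.17 on control arrays (SD, n = 3 each, exact two-sided permutation p = 0.1, the smallest this design can give), and that of Gapdh was -0.41 ± 0.099 on Stat3Δ/Δ arrays and 0.020 ± 0.26 on control arrays, with the same p.

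None of the 21 NF-κB probe sets was called, while over the whole array 1 of 45037 was, or 0.00222%. The lowest adjusted p among the members was 0.486 (limma). At the same p and fold without the FDR, 2 member probe sets lay higher in Stat3Δ/Δ cells, one of Tnfaip3 and one of Bcl10, and 0 lay lower. On the whole array 4.14% of the probe sets passed these limits as higher and 4.22% as lower, 8.36% in all. The median log2 fold change of the 21 was 0.20, against -0.017 for all probe sets. The 7 probe sets of Malt1 and Bcl10 all lay above 0, with a median of 0.64, whereas those of the inhibitors were split, 4 above and 5 below, and those of the DNA-binding subunits were split 2 to 3. Those 7 are repeated readings of 2 genes, and on the whole array 21761 of 45037 probe sets lay above 0. Taken by the brightest probe set of each gene, 0 of the 9 genes passed p and fold without the FDR, against 7.69% of all genes in either direction, and 0 were called, against 0.0110%. In pooled cells, fewer cells that express a gene and less of its RNA per cell cannot be told apart.

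**Figure D1:**
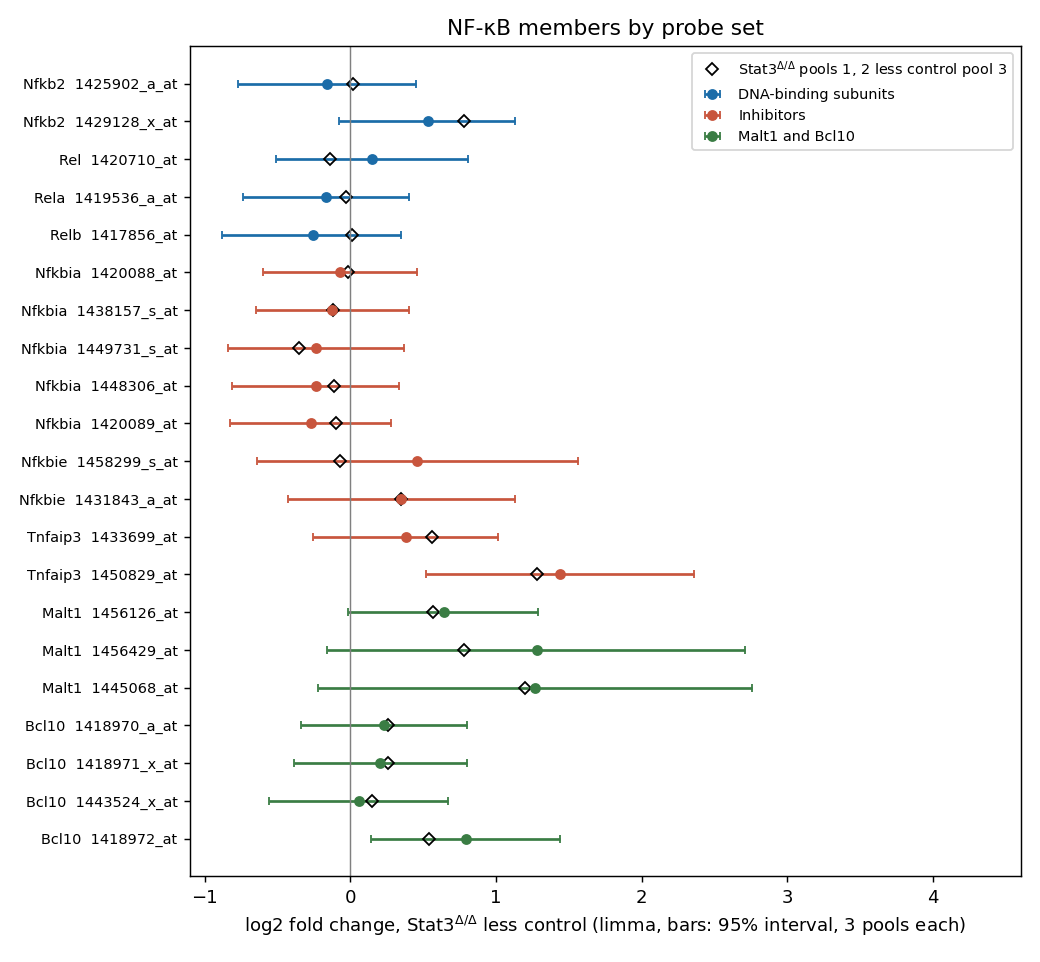
Log2 fold change of each member probe set (x axis, Stat3Δ/Δ less control on the log2(signal + 70.0) scale) with its 95% interval from limma (3 pools a group), colored by role, and the shared-number difference as open diamonds. Of the 21 intervals, those of Tnfaip3 1450829_at (0.52 to 2.36) and Bcl10 1418972_at (0.14 to 1.44) lie wholly above 0, and every other one spans 0.

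Rela encodes the subunit that carries most of the transcriptional activity of the classical pathway. Its signal was 12853, 14728 and 17160 on the arrays of Stat3Δ/Δ pools 1 to 3, against 21636, 17231 and 14176 on those of control pools 1 to 3. The groups overlapped, and control pool 3 lay below Stat3Δ/Δ pools 2 and 3. The log2 fold change was -0.17 (standard error, SE, of 0.25; adjusted p = 0.881 from limma), and the shared-number difference was -0.029.

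Relb and Nfkb2 form the dimer of the alternative pathway, in which the Nfkb2 precursor is cut to its active form. Relb had signals of 2318, 3066 and 2726 in Stat3Δ/Δ pools 1 to 3, against 3181, 3971 and 2646 in control pools 1 to 3. Controls 1 and 2 lay highest and control 3 among the Stat3Δ/Δ pools. This left a fold change of -0.26 (log2, 95% interval -0.88 to 0.35), and it was 0.0080 within the shared number. Of the probe sets of Nfkb2, the brighter, 1425902_a_at, gave 4295, 3477 and 4378 in Stat3Δ/Δ pools, against 4299, 5575 and 3787 in control pools, with overlap and a log2 fold change of -0.16 (95% interval -0.77 to 0.45). The dimmer, 1429128_x_at, gave 2947, 2244 and 2629 in Stat3Δ/Δ pools, against 1983, 1872 and 1492 in control pools. Here every Stat3Δ/Δ pool lay above every control pool, at 0.53 ± 0.26 on the log2 scale (SE, limma adjusted p = 0.640) and a shared-number difference of 0.78. The _x_at ending of this probe set marks probes that can match other transcripts, and the one gene was thus read in opposite directions by its probe sets. The mean of both gave 0.19 (adjusted p = 0.841 from limma).

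Rel encodes c-Rel, a subunit best known from lymphocytes and myeloid cells. Its single probe set gave 1502, 1957 and 1345 in Stat3Δ/Δ pools, against 1263, 1096 and 1898 in control pools. Stat3Δ/Δ pool 2 and control pool 3, which share the leading title number, had the highest signals, and the groups overlapped. This left a fold change of 0.15 (log2, 95% interval -0.51 to 0.81) and the shared-number difference was -0.14.

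**Figure D2:**
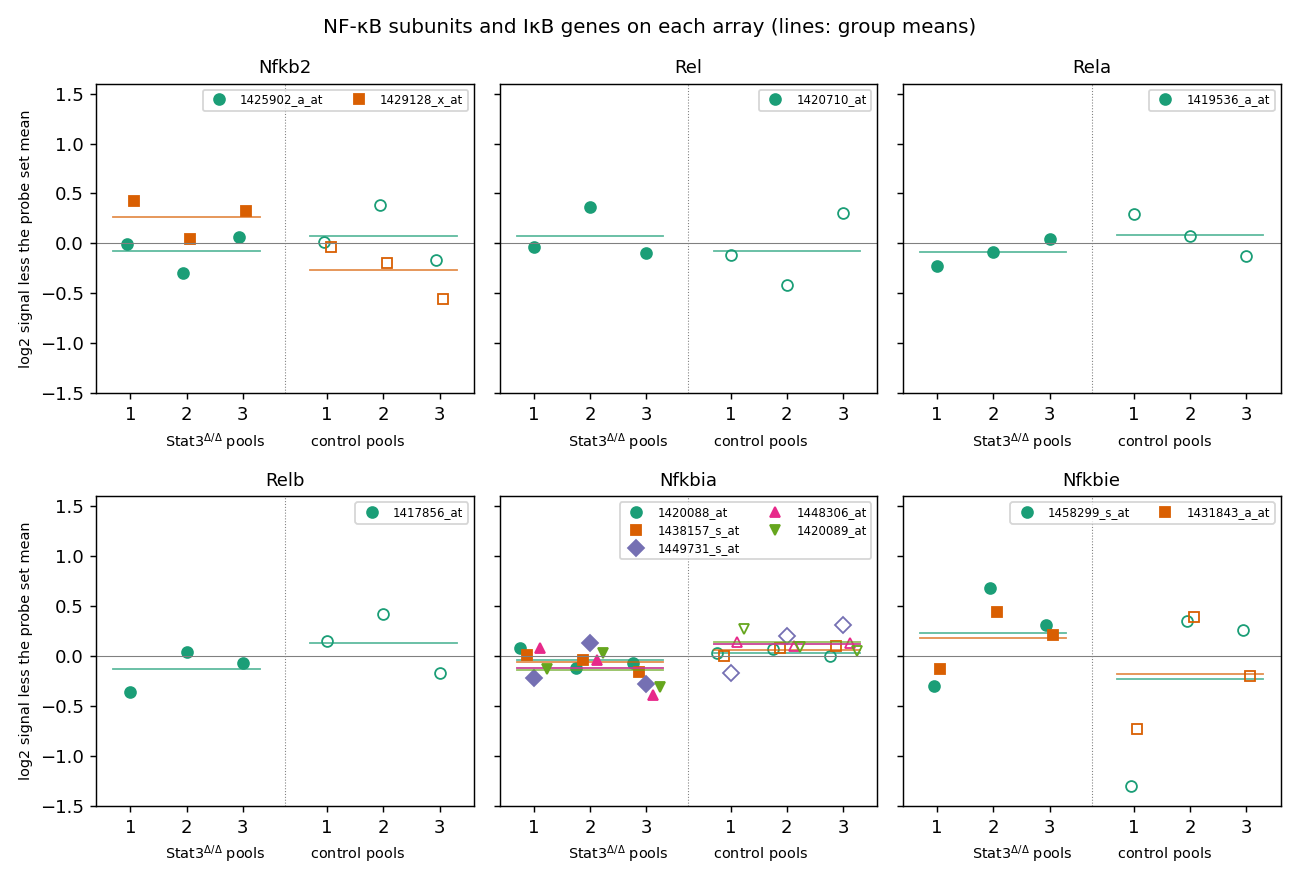
Log2 signal of each probe set of Nfkb2, Rel, Rela, Relb, Nfkbia and Nfkbie on each array (y axis, less the mean of that probe set over the 6 arrays; x axis, Stat3Δ/Δ pools 1 to 3 filled, then control pools 1 to 3 open), with lines at the group means. The groups overlap for Rel, Rela, Relb and Nfkbie, and Nfkb2 1429128_x_at stands apart from Nfkb2 1425902_a_at.

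Nfkbia (chr12:55489409-55492647, GRCm38.p6) encodes IκBα, the main cytoplasmic inhibitor of Rela, and is itself induced by NF-κB. It was among the brightest genes on the array, with 4 of its 5 probe sets between the 99.3 and the 99.8 percentile of signal. All 5 had a log2 fold change below 0, from -0.27 to -0.073, and of the genes with 5 probe sets on the array 6.05% had all 5 below 0. The probe set 1448306_at had signals of 47345, 44523 and 40559 in Stat3Δ/Δ pools, against 61666, 56422 and 54105 in control pools. Each Stat3Δ/Δ pool lay below each control pool, at -0.24 ± 0.25 on the log2 scale (SE, limma adjusted p = 0.821). The dimmest, 1420089_at, gave 3378, 3781 and 2853 in Stat3Δ/Δ pools, against 4394, 3873 and 3797 in control pools, again without overlap and with a log2 fold change of -0.27 (95% interval -0.83 to 0.28). The brightest, 1420088_at, gave 82678, 76911 and 89293 in Stat3Δ/Δ pools, against 95543, 94444 and 93184 in control pools. As deposited, these signals did not overlap either, while after quantile normalization Stat3Δ/Δ pool 1 (16.51) lay above control pools 1 to 3 (16.46, 16.50 and 16.43) on the log2 scale. Over all members, 4 probe sets lay lower without overlap in the deposited signals, all of them of Nfkbia, against 6.39% of the array, and 2 did so after quantile normalization, against 7.66%. The shared-number differences of the 5 probe sets ran from -0.35 to -0.019, and none of the folds reached 1.5.

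Tnfaip3 (chr10:19000910-19015410) encodes a ubiquitin-editing enzyme that removes the activating ubiquitin chains upstream of IκB kinase and is a feedback inhibitor induced by NF-κB. At 1450829_at its signal was 8016, 3209 and 3323 in Stat3Δ/Δ pools 1 to 3, against 1190, 1530 and 2104 in control pools 1 to 3. Every Stat3Δ/Δ pool was above every control pool, and Stat3Δ/Δ pool 1 stood well above the other two. The log2 fold change was 1.44 (SE 0.40, a fold of 2.71), the largest of the 21 probe sets, and it did not pass the FDR (adjusted p = 0.486 from limma). It was 1.28 within the shared number and 1.22 between Stat3Δ/Δ pool 3 and the mean of control pools 1 and 2, and it was 1.01 without Stat3Δ/Δ pool 1. With the title number as a block, neither this probe set nor any of Bcl10 passed p and fold. The brighter probe set, 1433699_at, gave 21705, 25817 and 17348 in Stat3Δ/Δ pools, against 15850, 19793 and 16310 in control pools. Here Stat3Δ/Δ pool 3 lay within the control range, and the log2 fold change was 0.38 (95% interval -0.26 to 1.01). The mean of both probe sets gave 0.91 (adjusted p = 0.401 from limma), which passed p and fold without the FDR. Together, 3 member probe sets lay higher without overlap, those of Tnfaip3, Bcl10 and Nfkb2, against 5.99% of the array, and the same 3 did so in the deposited signals, against 7.13%.

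Nfkbie encodes IκBε, an inhibitor that is resynthesized late in a response. Its brighter probe set, 1458299_s_at, gave 2914, 5683 and 4302 in Stat3Δ/Δ pools, against 1278, 4516 and 4266 in control pools. Control pool 1 lay far below the rest, which overlapped. The difference was 0.46 ± 0.48 (SE, limma adjusted p = 0.825), and it was -0.075 without control pool 1. The dimmer probe set, 1431843_a_at, gave 0.35 (95% interval -0.43 to 1.13), with control pool 1 lowest again, and 0.078 without it.

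Since Nfkbia, Tnfaip3 and several other members are textbook NF-κB targets, the promoters of the measured members were searched for the κB consensus on both strands in the 250 bases before each annotated start (RefSeq, GRCm38.p6). No window was matched to Relb or Malt1, so neither was searched for this or the next motif. Of 10 windows of the other 7 member genes, 6 windows of 5 genes (Bcl10, Tnfaip3, Rel, Nfkbia and Nfkb2) held a match. Among all genes, 1643 of 32851 windows did. TTCNNNGAA, the element bound by STAT proteins, was searched on both strands in the same way and was found in 1 member window, of Nfkb2, against 7.02% of all windows, and it overlapped no κB match. The windows of Tnfaip3 (chr10:19015411-19015660, minus strand) and Nfkbia (chr12:55492648-55492897, minus strand) are shown because these feedback inhibitors gave values on opposite sides of 0, with the κB match in capitals.
Tnfaip3: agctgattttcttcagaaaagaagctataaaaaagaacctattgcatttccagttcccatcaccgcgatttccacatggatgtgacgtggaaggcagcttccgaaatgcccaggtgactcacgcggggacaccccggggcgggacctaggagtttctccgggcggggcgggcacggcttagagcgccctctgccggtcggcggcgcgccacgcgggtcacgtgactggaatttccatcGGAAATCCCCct
Nfkbia: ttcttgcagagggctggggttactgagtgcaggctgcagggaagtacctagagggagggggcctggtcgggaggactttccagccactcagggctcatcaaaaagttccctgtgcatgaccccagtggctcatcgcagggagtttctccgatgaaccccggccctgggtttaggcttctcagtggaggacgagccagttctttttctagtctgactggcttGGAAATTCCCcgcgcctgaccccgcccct
The match lies 12 to 3 bases before the annotated start of Tnfaip3 and 29 to 20 bases before that of Nfkbia. A match describes the letters of the window only, and the arrays do not measure binding.

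Malt1 (chr18:65430939-65478888, GRCm38.p6) encodes the protease and scaffold of the complex with Bcl10. Its 3 probe sets had log2 fold changes of 0.64, 1.28 and 1.27, and of the genes with 3 probe sets on the array 18.1% had all 3 above 0. The brightest, 1456126_at, gave 3790, 3284 and 2232 in Stat3Δ/Δ pools 1 to 3, against 1707, 1697 and 2352 in control pools 1 to 3. Stat3Δ/Δ pools 1 and 2 were highest, but control pool 3 lay above Stat3Δ/Δ pool 3. The log2 fold change of 0.64 (95% interval -0.015 to 1.29) had an adjusted p of 0.601 from limma. At 1456429_at the signals were 4619, 2828 and 975.2 in Stat3Δ/Δ pools, against 570.1, 536.8 and 2101 in control pools. At 1445068_at they were 3466, 2527 and 537.6 in Stat3Δ/Δ pools, against 390.0, 474.1 and 1281 in control pools. At both, the 3 arrays that share the leading title number were the 3 highest of the 6, the control among them. The SEs, 0.63 and 0.65, were the widest of all the member probe sets, against a median of 0.27, and the intervals spanned 0 (-0.16 to 2.71 and -0.22 to 2.76). The mean of the 3 probe sets gave 1.06 (adjusted p = 0.572 from limma).

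Among the control pools alone, pool 3 exceeded the mean of pools 1 and 2 by 0.40, 1.64 and 1.23 on the log2 scale for these 3 probe sets of Malt1. Within the shared number, Stat3Δ/Δ pools 1 and 2 exceeded control pool 3 by 0.57, 0.78 and 1.20, while Stat3Δ/Δ pool 3 less control pools 1 and 2 was 0.37, 0.64 and 0.16. Set against control pool 3, whose number differs from its own, Stat3Δ/Δ pool 3 gave -0.023, -1.01 and -1.07. The direction of Malt1 thus held between arrays that share a number and also between Stat3Δ/Δ pool 3 and control pools 1 and 2, and turned when Stat3Δ/Δ pool 3 was set against control pool 3. Without Stat3Δ/Δ pool 3, or without control pool 3, all 3 probe sets passed p and fold without the FDR. With any other array left out, none of them passed, and without Stat3Δ/Δ pool 1 their log2 fold changes were 0.49, 0.81 and 0.78. The fit with the title number as a block takes its group difference only from the arrays that share a number. It therefore repeats the shared-number differences of 0.57, 0.78 and 1.20 and adds no further comparison.

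Bcl10 (chr3:145924262-145934366) encodes the adaptor that assembles into filaments and recruits Malt1. Its 4 probe sets all lay above 0, and 1 of them separated the groups. At that one, 1418972_at, the signals were 4498, 4594 and 4218 in Stat3Δ/Δ pools, against 1701, 2948 and 3120 in control pools. The Stat3Δ/Δ pools lay close together and above every control pool, and control pool 1 was lowest. The log2 fold change was 0.79 (SE 0.28, a fold of 1.73, adjusted p = 0.532 from limma), 0.54 within the shared number and 0.88 between Stat3Δ/Δ pool 3 and the mean of control pools 1 and 2. It passed p and fold without the FDR with all arrays, but not without Stat3Δ/Δ pool 2 (0.77) nor without control pool 1 (0.54). The brightest probe set, 1418970_a_at, gave 6732, 7711 and 7402 in Stat3Δ/Δ pools, against 5409, 7372 and 5956 in control pools, with control pool 2 among the Stat3Δ/Δ pools. Its log2 fold change was 0.23 (95% interval -0.34 to 0.80). The remaining probe sets, 1418971_x_at and 1443524_x_at, gave 0.20 and 0.058, and at both control pool 2 was the highest array of all. Both carry the _x_at ending of probes that can match other transcripts. The mean of the 4 was 0.32 (adjusted p = 0.712 from limma). The promoter window of Bcl10 (chr3:145924012-145924261, plus strand) is shown for comparison with the feedback inhibitors, since its κB match, in capitals, lies much farther from the annotated start, at 241 to 232 bases before it.
Bcl10: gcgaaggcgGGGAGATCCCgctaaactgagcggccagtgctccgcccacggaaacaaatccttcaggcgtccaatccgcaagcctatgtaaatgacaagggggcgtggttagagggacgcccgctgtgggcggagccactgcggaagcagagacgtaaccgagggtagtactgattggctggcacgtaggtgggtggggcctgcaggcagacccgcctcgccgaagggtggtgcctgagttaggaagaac

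**Figure D3:**
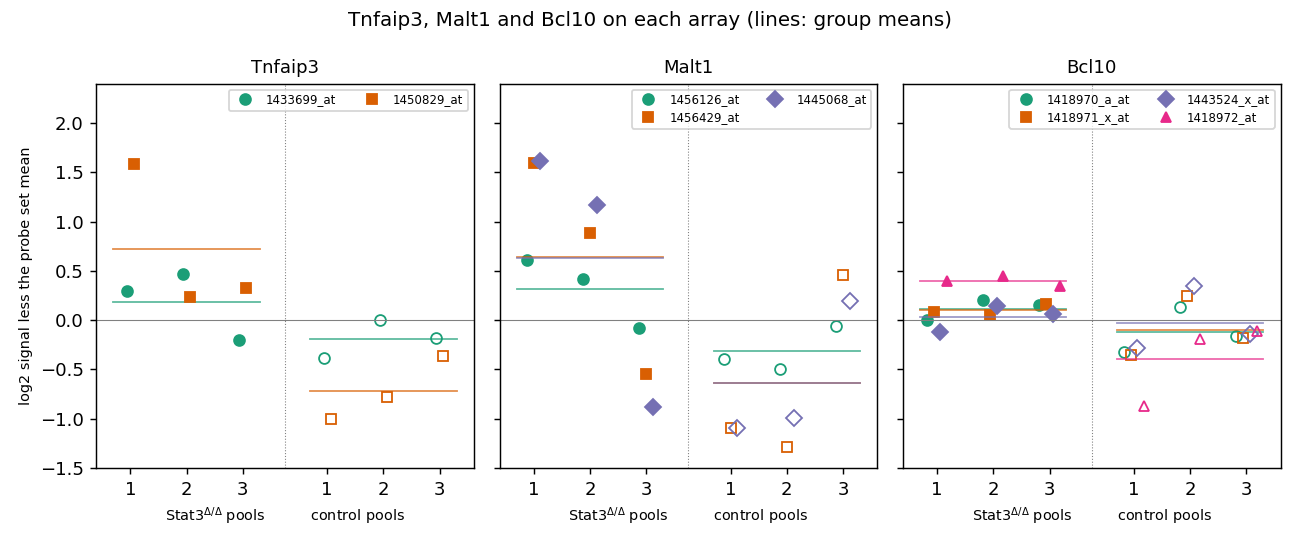
Log2 signal of each probe set of Tnfaip3, Malt1 and Bcl10 on each array (y axis, less the mean of that probe set over the 6 arrays; x axis, Stat3Δ/Δ pools 1 to 3 filled, then control pools 1 to 3 open), with lines at the group means. Tnfaip3 1450829_at and Bcl10 1418972_at separate the groups, while for Malt1 Stat3Δ/Δ pool 3 falls below control pool 3 at all 3 probe sets.

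The study, with its own normalization, reported Malt1 and Bcl10 as increased in Stat3Δ/Δ cells, and Malt1 also by real-time PCR. Its folds for both genes were larger than the highest of any probe set here, 2.43 for Malt1 and 1.73 for Bcl10. It also gave priority, without the FDR, to mRNAs that changed consistently in several probe sets. Read here as 2 probe sets past p and fold in one direction, on the signals used here, that rule gave no call among the members. Of the 6 member genes with several probe sets, 0 had 2 probe sets past p and fold in one direction, against 2.65% of such genes on the array. Across the 21 probe sets, 13 had a shared-number difference above 0, and 12 were higher in Stat3Δ/Δ pool 3 than in the mean of control pools 1 and 2. In root mean square difference of centered log2 values over the 6 arrays, Fam210a, Rnd3 and Osgin2 came nearest to the brightest probe set of Malt1 (0.075 to 0.079, where Malt1 itself varied by 0.40), and Zfp934, Rhoa and Prex1 nearest to that of Bcl10 (0.066 to 0.074, against 0.19). This likeness describes these 6 arrays and carries no test.

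The kinases and adaptors that feed into NF-κB were measured by 24 other genes, each by its brightest probe set. None was called. Without the FDR, Ikbke, an IκB kinase-related kinase of the interferon response, and Tank, an adaptor of the same kinase, lay higher in Stat3Δ/Δ cells, and Tab1, an activator of the kinase TAK1, lay lower, or 2 and 1 of 24 against 2.15% and 5.54% of all genes. Ikbke had signals of 723, 547 and 433 in Stat3Δ/Δ pools, against 105, 234 and 498 in control pools, higher by 0.90 on the log2 scale (SE 0.38, adjusted p = 0.633 in limma). Tank had 3243, 3173 and 2050 in Stat3Δ/Δ pools, against 928, 1380 and 2482 in control pools, at 0.83 ± 0.36 on the log2 scale (SE, limma adjusted p = 0.634). For both, control pool 3 lay above Stat3Δ/Δ pool 3, as for Malt1, and the shared-number differences were 0.31 and 0.36. Tab1 had 386, 361 and 502 in Stat3Δ/Δ pools, against 677, 1017 and 785 in control pools, without overlap, at -0.97 ± 0.27 on the log2 scale (SE, limma adjusted p = 0.496). The IκB kinase subunits Ikbkb and Ikbkg gave 0.040 and -0.42, and the CARD scaffold Card10, a partner of Bcl10 in epithelial cells, gave -0.52 (SE 0.28). None of these 3 passed. Other probe sets of some of these genes differed: the mean over all probe sets was 0.49 for Ikbkb, 0.044 for Ikbkg, 0.52 for Tank and -0.49 for Tab1. Ikbke and Card10 had 1 probe set each. The median of the list was 0.13, against -0.085 for all genes.

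Among 23 other inhibitors and regulators, 0 passed p and fold without the FDR, against 7.69% of all genes in either direction, and the median was 0.054. Bcl3, a nuclear IκB protein that cooperates with NF-κB dimers, was the 1 gene of the 23 whose groups did not overlap. It was lower in Stat3Δ/Δ cells at -0.53 ± 0.25 on the log2 scale (SE, limma adjusted p = 0.673). Of all genes, 10.2% lay lower and 4.23% higher without overlap, so this count does not set the list apart. Nfkbiz, a nuclear IκB protein induced in epithelia, gave 0.31, Nfkbib, which encodes IκBβ, gave 0.34, and the deubiquitinase Cyld gave 0.074. As the mean over all their probe sets these 3 gave 0.50, 0.088 and 0.55. Bcl3, Nfkbiz, Nfkbib, Cyld, Ikbkb, Ikbkg and Card10 were named for their place in the pathway after their values were seen.

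Of 28 measured genes that NF-κB is known to induce, 19 lay above 0 and 9 below. Il1b, the interleukin-1β gene, passed p and fold without the FDR as higher, and Junb, an AP-1 subunit, and Irf1, an interferon regulatory factor, passed as lower. This made 1 higher and 2 lower of 28, where 2.15% and 5.54% of all genes passed. Il1b had signals of 21932, 25566 and 13373 in Stat3Δ/Δ pools, against 10198, 10528 and 8904 in control pools, at 1.05 ± 0.32 on the log2 scale (SE, limma adjusted p = 0.533). Irf1 had 10727, 10042 and 12347 in Stat3Δ/Δ pools, against 22858, 22704 and 22860 in control pools, at -0.99 ± 0.23 on the log2 scale (SE, limma adjusted p = 0.449). Junb had 12603, 14803 and 13202 in Stat3Δ/Δ pools, against 21420, 27614 and 36001 in control pools, at -0.95 ± 0.30 on the log2 scale (SE, limma adjusted p = 0.534). All 3 separated the groups on every array, and 5 of the 28 targets lay lower without overlap and 1 higher, against 10.2% and 4.23% of all genes. The survival and adhesion targets Bcl2l1 (-0.44) and Icam1 (-0.41) were among these 5 and did not pass p and fold. The mean over the probe sets of Bcl2l1 was -0.085.

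The median of the targets was 0.14 over all arrays, and their shared-number differences had a median of 0.40. The acute cytokine genes Il6, Cxcl1, Cxcl2 and Ccl2, named after their values were seen, had log2 fold changes of 0.23, 0.24, 0.33 and 0.31 over all arrays and 1.73, 1.35, 1.17 and 1.43 within the shared number. For all 4, Stat3Δ/Δ pool 3 was the lowest of the Stat3Δ/Δ pools and control pool 3 the lowest of the control pools. Malt1 differed from these 4 in that control pool 3 was the highest control. Other cytokine genes of the list were mixed in this respect. Control pool 3 was the highest control for Ccl5 and Tnf, the lowest for Cxcl5, Ccl20 and Il1b, and neither for Csf2. The anti-apoptotic targets Birc2, Birc3 and Cflar, also named after their values were seen, gave 0.097, 0.027 and 0.12. As means over probe sets Birc3 gave -0.23 and Cflar 0.19. Traf1, which encodes an adaptor and is also a target, was counted among both the adaptors and the targets and gave 0.20, or 0.43 as the mean over its probe sets.

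**Figure D4:**
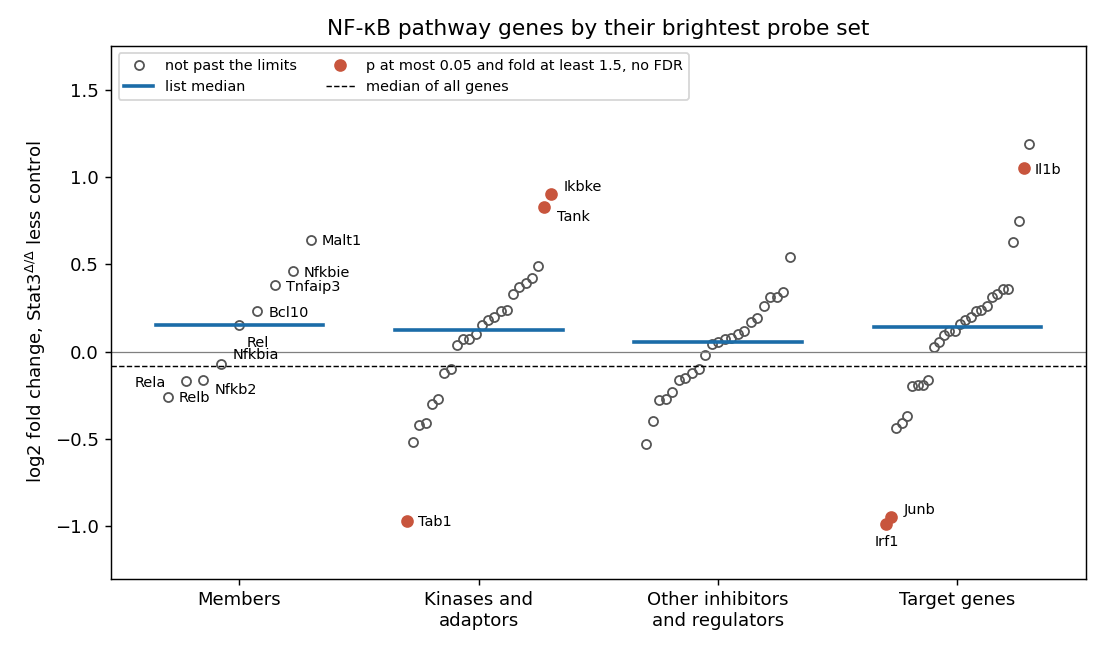
Log2 fold change (y axis, Stat3Δ/Δ less control) of each gene by its brightest probe set, for the 9 members and 3 lists of pathway genes sorted by value (x axis), with list medians as solid lines and the median of all genes, -0.085, as a dashed line. Filled points passed p and fold without the FDR; no member did, and the median of the members was 0.15.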

How the data were processed

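Affymetrix MOE430 arrays were hybridized with RNA of 3 Stat3Δ/Δ pools and 3 control pools. The deposited intensity values are signals that the authors computed with Microarray Suite 5 (MAS5, per the labels) and scaled to one trimmed mean on each array. They carry neither probe-level data nor detection calls, so the authors' own normalization could not be repeated. Groups came from the sample titles. Of 45101 probe sets, 64 controls were left out and 45037 tested. Signals were raised by a pseudocount of 70.0 (their 20th percentile), put on the log2 scale, quantile normalized and tested with limma 3.58.1 in R 4.3.3, with Benjamini-Hochberg adjustment over all probe sets, or over 18193 genes where each was represented by its brightest probe set. A call needed p up to 0.05, FDR up to 10% and a fold of 1.5 or more, the thresholds of the study's methods. The tests were first run on simulated data. Of the probe sets, 34945 name 1 gene, 932 several and 9160 none in the platform annotation, and only those of 1 gene were given a name. Precision is limited by having 3 arrays a group.

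The members and all gene lists were chosen with earlier results of these data known. All probe sets of the members were named, and of each pathway list every gene past p and fold without the FDR, with others marked as chosen after their values were seen. For Malt1 and Bcl10 the 3 genes of nearest pattern were named. Marker lists of other cell types were summarized in the same way. Promoters and gene positions were taken from RefSeq tables of GRCm38.p6. Alternatives were other pseudocounts and normalizations, a filter on low signal, the methods' t-test, blocks by replicate or title number, array weights, the mean of a gene's probe sets, and leaving out each array.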

Additional observations from a re-analysis of the deposited data

How the results depend on the processing

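Of the member values under all alternatives, 324 kept their direction and 12 reversed, in 5 of the 21 probe sets, none of which passed p and fold with all arrays. The methods' t-test, the replicate block and the signal filter leave the fold change as it is. Their values could not reverse, so the counts do not measure how robust a direction is. No member probe set was called with the FDR in any of the fits, while passing p and fold without it did change. The fit with the title number as a block takes its group difference only from the arrays of the shared number. It repeats the shared-number difference, and both are in the counts above. Both gave 0.020 for Nfkb2 1425902_a_at, -0.14 for Rel, 0.0080 for Relb and -0.073 for Nfkbie 1458299_s_at. With arrays centered on their medians Bcl10 1443524_x_at gave -0.081. With each array left out in turn, Rel ran from -0.018 to 0.34, Nfkbie 1458299_s_at from -0.075 to 0.75 and Bcl10 1443524_x_at from -0.071 to 0.24. The cause was not tested.

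The 2 member probe sets past p and fold became 1 with the title number as a block, namely 1445068_at of Malt1, 3 with the signal filter, where 1456126_at of Malt1 was added, and 5 with array weights. Leaving out arrays gave 1 to 5: Tnfaip3 1450829_at alone without Stat3Δ/Δ pool 2 or control pool 1, and 5 (with Bcl10 1418972_at and all 3 of Malt1) without Stat3Δ/Δ pool 3 or control pool 3. By brightest probe set the count of 0 became 1 with the signal filter, with array weights and with the mean of probe sets, and ran from 0 to 1 with arrays left out.

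Over all probe sets the 1 call became 0 without a pseudocount, by the methods' t-test and with the title number as a block, 11 with the median as pseudocount, 2 with median centering, 16 with the signal filter and 2 with array weights, and ran from 0 to 1 with arrays left out. The 2 gene calls became 0 without a pseudocount, by the t-test and with the title number as a block, 6 with the median as pseudocount and 7 with the signal filter, and ran from 0 to 1 with arrays left out. List medians with centered arrays were -0.0025 for kinases and adaptors and -0.072 for other inhibitors, and the targets gave 0.40 with the title number as a block. With arrays left out they ran from 0.041 to 0.24, from -0.026 to 0.084 and from -0.065 to 0.25.

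Same-numbered pools of the 2 groups did not deviate together (correlations of deviations -0.0838, -0.00881 and -0.235), so the numbers were not taken to pair them. With the replicate block 2 member probe sets passed p and fold, the same 2, and the calls were 0 probe sets and 1 gene. Signals of dim probe sets depend most on the pseudocount, and the members lay at the 72.9 percentile of signal or above.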
